A study of Mus musculus with 24 samples.

Results

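The pyruvate and citric acid cycle set held 9 genes of the 19938 with a probe set of 1 gene symbol on the array. They were taken by name, with no rule on measured values, although earlier results of these data were known. The genes were Pdha1, Pdk4, Cs, Idh3a, Idh3g, Ogdh, Suclg1, Fh1 and Mdh2. Each was read by 1 probe set, and all 9 passed the filter on dim genes that left 15999 genes for the tests. Affymetrix arrays read RNA of quadriceps and soleus muscle from males of 40 to 42 days on a mixed background of C57BL/6J and 1219S6/SvEvTac (spelled as the labels have it). Every mouse, controls included, had both copies of the nebulin gene (Neb) in conditional form; nebulin is the giant protein of the sarcomere's thin filament. The conditional knockouts (cKO) also carried 1 copy of the MCK-Cre transgene, in which the muscle creatine kinase promoter drives the recombinase, so that deletion is limited to cells in which that promoter is active. Controls had no Cre. Each muscle and genotype made up 1 of 4 groups of 6 arrays, described as biological replicates. According to the submitters the cKO quadriceps is markedly smaller than that of controls, and the soleus is not significantly so.

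Pyruvate made by glycolysis enters the mitochondrial matrix and is turned into acetyl-CoA by the pyruvate dehydrogenase complex. Kinases of the Pdk family switch that complex off by phosphorylating its E1 alpha subunit, and phosphatases switch it on again. The citric acid cycle then oxidises the acetyl group and hands electrons to the respiratory chain, and in skeletal muscle it works hardest in oxidative fibres. In muscle, Pdk4 is the kinase known to be induced by fasting and by fatty acids, a state in which glucose carbon is spared.

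Of the 8 enzymes, 6 fell in the cKO quadriceps and all 8 fell in the cKO soleus, while the kinase gene Pdk4 rose in quadriceps. The falls ran from 1.17-fold for Fh1 in quadriceps to 2.18-fold for Idh3a in soleus. A gene was called when its limma p, adjusted by Benjamini-Hochberg over the 15999 genes, was under 0.05 (two-sided). By that rule 17.7% of all genes tested were called lower and 22.3% higher in the cKO quadriceps, and 9.94% lower and 13.2% higher in the cKO soleus. The median change of the 9 genes was -0.27 on the log2 scale in quadriceps, where it was -0.01 over all genes, and -0.41 in soleus, where it was -0.02 over all genes. In whole muscle, fewer cells of a type and less RNA per cell cannot be told apart. The 2 cKO comparisons share no arrays, but they share 1 estimate of the spread per gene, and their muscles appear to be from the same mice. They are thus not independent of each other. The comparisons between muscles reuse the arrays of both.

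**Figure D1:**
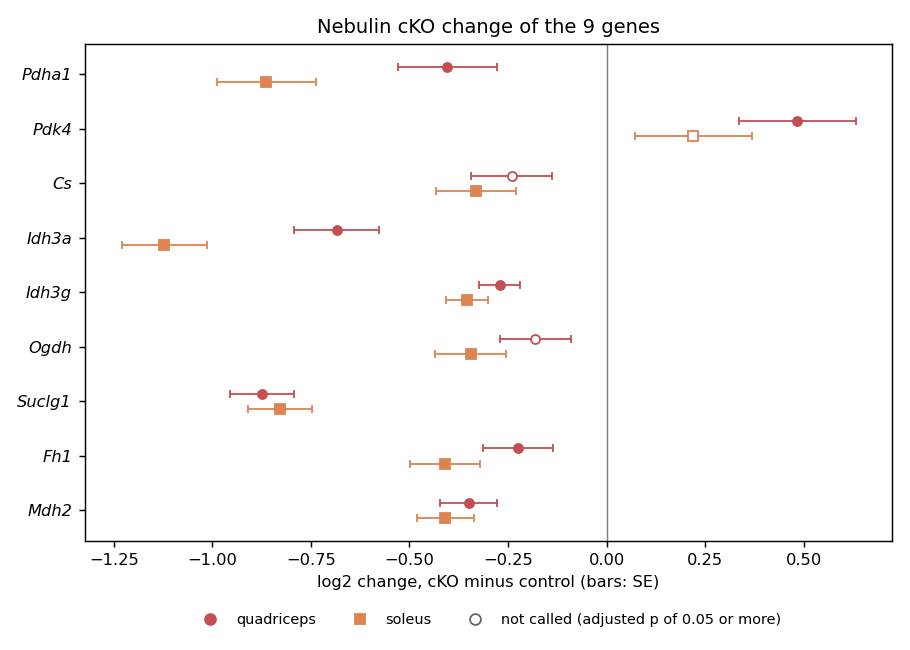
Change of each of the 9 genes in cKO against control on the log2 scale (x axis), for quadriceps and soleus; points are limma estimates, bars are standard errors, and filled points passed an adjusted p of 0.05. The 8 enzymes lie below 0 in both muscles and Pdk4 lies above 0.

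Neb checked the labels: its log2 change was -1.45 in quadriceps (SE 0.11, limma adjusted p = 1.40e-10) and -1.14 in soleus (SE 0.11, adjusted p = 2.27e-08), with every cKO array below every control array of its muscle. Slow fibre markers checked the tissues: 8 of 8 were higher in control soleus than in control quadriceps, with summed intensities of 31759 to 44150 against 3755 to 10810. Array medians were 4.74 to 4.94 in log2 units, and the number of arrays limits the precision. A pair of control arrays stood apart from their groups, as was seen from the members' values. Quadriceps control 4 was low in Pdha1 (0.75 below the mean of the other 5 arrays on the log2 scale), Cs (0.69), Fh1 (0.61), Ogdh (0.56), Idh3a (0.50) and Mdh2 (0.36), but read within the range of the others in Suclg1 and 0.06 below their mean in Idh3g. Its sum of the 8 skeletal muscle markers was 35838 against 42092 to 43196 in the other 5, and its array weight in limma, 0.207, was the lowest of the 24 (0.389 for quadriceps control 6 and 0.394 for soleus control 1 were next). Soleus control 1 was low in Pdk4 (0.72 below the mean of its other 5), Idh3a (0.64) and Pdha1 (0.50). Its slow fibre sum, 44150, exceeded the 31759 to 34852 of the other soleus controls, and its fast fibre sum, 28266, lay under their 32428 to 39581. Member calls that change without either array are given with and without it. Both arrays were picked from low values of the members. Leaving them out therefore tends to enlarge the enzymes' falls by that choice and is no separate support.

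**Figure D2:**
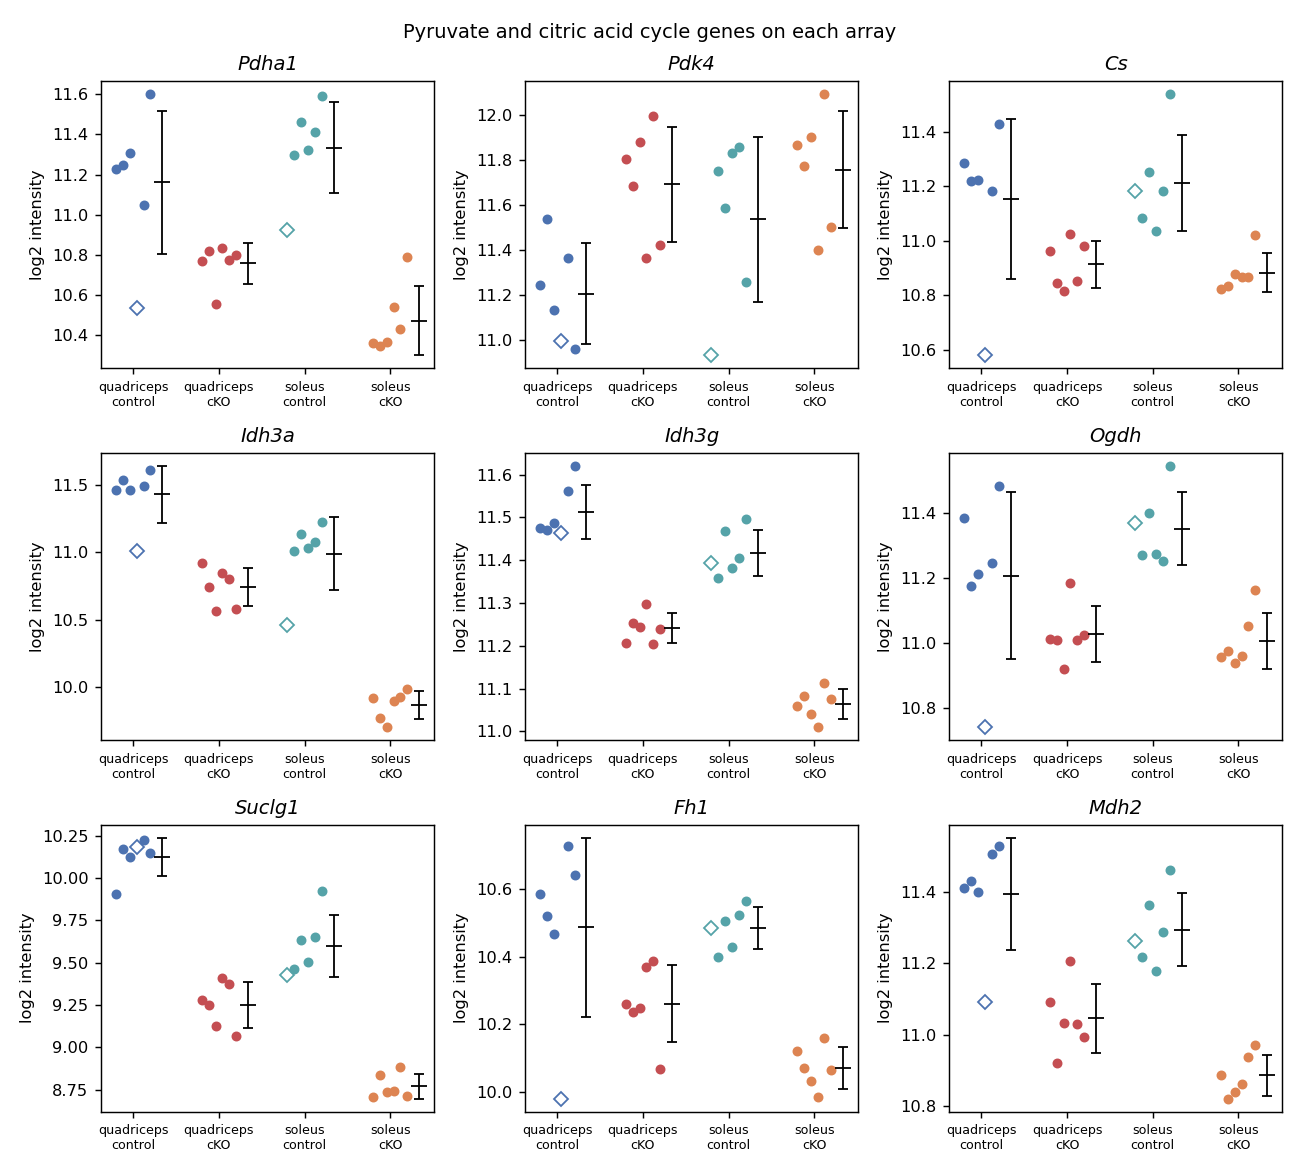
Log2 intensity of the 9 genes (y axis) on each of the 24 arrays, by group; points are arrays, open diamonds mark quadriceps control 4 and soleus control 1, and bars give mean and SD (n = 6). In soleus the cKO arrays of the 8 enzymes lie below all control arrays, while quadriceps control 4 lies below at least 1 quadriceps cKO array for Pdha1, Cs, Ogdh, Fh1 and Mdh2.

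Pdha1 encodes the E1 alpha subunit of pyruvate dehydrogenase, the catalytic subunit that the Pdk kinases phosphorylate (Entrez gene 18597, mm10 chromosome X, 160122219 to 160138430). Its log2 intensity in quadriceps ran from 10.53 through a median of 11.24 to 11.60 in controls, and from 10.56 through 10.79 to 10.83 in cKO. Quadriceps control 4, at 10.53, was the lowest of these 12 arrays, and the other 5 controls lay above every cKO array. The change was -0.40 (SE 0.13, 1.32-fold lower, limma adjusted p = 0.0127), and without that array -0.53 (SE 0.11, adjusted p = 0.00029). In soleus the controls ran from 10.92 through 11.37 to 11.59 and the cKO from 10.34 through 10.40 to 10.79. The groups did not overlap, and the fall was 1.82-fold (change -0.86, SE 0.13, adjusted p = 9.34e-06).

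Pdk4 encodes the kinase that inactivates the complex (Entrez gene 27273, mm10 chromosome 6, 5483351 to 5496278). Its log2 intensity in quadriceps ran from 10.96 through 11.19 to 11.54 in controls and from 11.36 through 11.74 to 11.99 in cKO, so that 4 of 6 cKO arrays lay above every control. It rose 1.40-fold (log2 change 0.48, SE 0.15, limma adjusted p = 0.0112). Soleus controls spread from 10.94 through 11.67 to 11.86 and soleus cKO from 11.40 through 11.82 to 12.09, and the groups overlapped widely. That change was 0.22 (SE 0.15, adjusted p = 0.315), and 0.10 (SE 0.14, adjusted p = 0.646) when both control arrays that stand apart were left out. The difference of the Pdk4 changes between muscles, 0.26 (SE 0.21, adjusted p = 0.453), did not pass the test.

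Upstream sequences were set beside these values because the estimates of the 8 enzymes lay below 0 in both muscles and that of Pdk4 above 0. The RefSeq table for GRCm38.p6, the assembly that mm10 names, held windows for 8 of the 9 genes, with 6 alternative starts for Ogdh and 13 windows in all. The 250 bases before the annotated start are shown for Cs, the cycle's first enzyme; for Idh3g and Suclg1, both lower in either muscle with no overlap; and for Pdk4. They lie at chr10:128337477-128337726 (plus strand, Cs), chrX:73786898-73787147 (minus strand, Idh3g), chr6:73248255-73248504 (plus strand, Suclg1) and chr6:5496279-5496528 (minus strand, Pdk4). Each is written 5′ to 3′ on its gene's strand, and capitals mark a match to a searched motif on either strand.
Cs: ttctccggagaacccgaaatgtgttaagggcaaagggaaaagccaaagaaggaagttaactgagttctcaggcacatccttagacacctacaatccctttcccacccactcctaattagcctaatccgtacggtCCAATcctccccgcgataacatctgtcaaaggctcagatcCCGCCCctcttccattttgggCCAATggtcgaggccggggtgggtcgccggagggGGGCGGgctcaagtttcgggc
Idh3g: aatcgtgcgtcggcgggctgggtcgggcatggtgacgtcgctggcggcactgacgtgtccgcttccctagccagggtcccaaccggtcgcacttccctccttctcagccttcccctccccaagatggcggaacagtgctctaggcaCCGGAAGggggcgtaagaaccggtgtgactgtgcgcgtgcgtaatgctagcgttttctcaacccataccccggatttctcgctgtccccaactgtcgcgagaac
Suclg1: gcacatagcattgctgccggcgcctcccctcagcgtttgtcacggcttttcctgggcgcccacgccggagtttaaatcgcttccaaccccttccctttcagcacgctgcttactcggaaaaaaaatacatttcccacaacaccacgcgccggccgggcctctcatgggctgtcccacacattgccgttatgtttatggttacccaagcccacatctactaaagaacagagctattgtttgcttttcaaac
Pdk4: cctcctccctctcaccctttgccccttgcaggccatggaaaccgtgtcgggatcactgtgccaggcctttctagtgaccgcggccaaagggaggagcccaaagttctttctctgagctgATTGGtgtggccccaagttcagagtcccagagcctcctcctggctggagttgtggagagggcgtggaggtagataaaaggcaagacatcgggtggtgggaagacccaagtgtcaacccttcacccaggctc

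A search of both strands looked for 8 motifs by their letters, and no pair of matches in the printed windows overlapped. The GC box (GGGCGG), which Sp1 family factors are known to bind, stood in 32.7% of all 32851 windows of this length and in windows of 4 of the 8 genes, among them Cs with 2. The box named for its letters CCAAT was in 33.8% of all windows and likewise in 4 genes, with 2 matches in the Cs window and 1, on the opposite strand, in that of Pdk4. The ETS family motif (CCGGAAG) was in 6.91% of all windows and, within the set, in that of Idh3g at bases -104 to -98 from the start. The E box (CACGTG) was in 6.02% of all windows and in Ogdh alone among these genes. None of the 13 windows held the ERR motif (AAGGTCA, in 4.08% of all windows). The same was true of the motif of the FoxO factors (TGTTTAC, in 3.17%) and of the TATA box (with the letters TATAAA, in 12.4%). The NRF1 motif, in 3.74% of all windows, was absent from the 13 as well. The Suclg1 window matched none of the 8. A match is a description of letters, not a bound site.

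Cs encodes citrate synthase, which joins acetyl-CoA to oxaloacetate (Entrez gene 12974, mm10 chromosome 10, 128337727 to 128362482). Its log2 intensity in quadriceps went from 10.58 through 11.22 to 11.43 in controls and from 10.82 through 10.91 to 11.02 in cKO. With all arrays the change of -0.24 (SE 0.10, limma adjusted p = 0.0622) missed the threshold. The lowest control was again quadriceps control 4, and without it Cs was 1.28-fold lower (log2 change -0.36, SE 0.08, adjusted p = 0.000651) with no overlap. It also passed without soleus control 6 (adjusted p = 0.0477). Soleus controls ran from 11.04 through 11.18 to 11.54 and soleus cKO from 10.82 through 10.87 to 11.02, with no overlap and a 1.26-fold fall (log2 change -0.33, SE 0.10, adjusted p = 0.0181). Without soleus control 6 that fall was 0.27 on the log2 scale with an adjusted p of 0.0591.

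Idh3a and Idh3g encode the alpha (catalytic) and gamma (regulatory) subunits of NAD-dependent isocitrate dehydrogenase, a rate-controlling step of the cycle. Idh3a (Entrez gene 67834, mm10 chromosome 9, 54586511 to 54604662) had log2 intensities of 11.01 to 11.61 around a median of 11.48 in quadriceps controls and of 10.57 to 10.92 around 10.77 in quadriceps cKO. No cKO array reached a control array, and the fall was 1.61-fold (log2 change -0.69, SE 0.11, limma adjusted p = 1.36e-05). Soleus values of Idh3a ran from 10.46 through 11.05 to 11.23 in controls and from 9.71 through 9.91 to 9.99 in cKO. This was the largest change of the set, 2.18-fold lower (log2 change -1.12, SE 0.11, adjusted p = 1.33e-08), again without overlap. Soleus control 1, at 10.46, was the low control, and without both arrays that stand apart the fall was 2.34-fold.

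Idh3g (Entrez gene 15929, mm10 chromosome X, 73778963 to 73786897) had the smallest spread of the set, with SDs from 0.035 in quadriceps cKO to 0.064 in quadriceps controls (n = 6 each). Quadriceps controls read 11.46 to 11.62 (median 11.48) and quadriceps cKO 11.20 to 11.30 (median 11.24), a fall of 1.21-fold (log2 change -0.27, SE 0.05, limma adjusted p = 0.000211). Soleus controls read 11.36 to 11.50 (median 11.40) and soleus cKO 11.01 to 11.11 (median 11.07), a fall of 1.28-fold (log2 change -0.35, SE 0.05, adjusted p = 1.39e-05). Both falls were without overlap, although small. The other regulatory subunit gene, Idh3b, had changes of -0.02 in quadriceps (adjusted p = 0.877) and -0.09 in soleus (adjusted p = 0.606), neither of them called; without both arrays that stand apart the quadriceps value was -0.18 (adjusted p = 0.0279).

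Ogdh encodes the E1 subunit of the oxoglutarate dehydrogenase complex, which makes succinyl-CoA (Entrez gene 18293, mm10 chromosome 11, 6291597 to 6359094). In quadriceps it ran from 10.74 through 11.23 to 11.48 in controls and from 10.92 through 11.01 to 11.18 in cKO on the log2 scale. The groups overlapped and the change of -0.18 (SE 0.09, limma adjusted p = 0.11) missed the threshold; without quadriceps control 4 it was -0.27 (SE 0.07, adjusted p = 0.00357), still with an overlap. Soleus controls ran from 11.25 through 11.32 to 11.54 and soleus cKO from 10.94 through 10.97 to 11.16. There the groups were apart and Ogdh was 1.27-fold lower (log2 change -0.34, SE 0.09, adjusted p = 0.00542).

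Suclg1 encodes the alpha subunit of succinyl-CoA ligase, shared by the ATP-forming and GTP-forming enzymes (Entrez gene 56451, mm10 chromosome 6, 73248505 to 73276907). Its log2 intensity in quadriceps ran from 9.91 through 10.16 to 10.22 in controls and from 9.07 through 9.26 to 9.41 in cKO. All 6 cKO arrays lay well below the controls, and it fell 1.83-fold (log2 change -0.88, SE 0.08, limma adjusted p = 3.03e-09). Soleus values ran from 9.42 through 9.57 to 9.92 in controls and from 8.71 through 8.74 to 8.89 in cKO. That fall was 1.78-fold (log2 change -0.83, SE 0.08, adjusted p = 1.79e-08), and the difference between muscles was -0.05 (SE 0.12, adjusted p = 0.842). Suclg1 was the member with the largest fall in quadriceps, and quadriceps control 4 was within the control range for it.

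Fh1 encodes fumarase, which hydrates fumarate to malate (Entrez gene 14194, mm10 chromosome 1, 175601378 to 175625635). Quadriceps controls ran from 9.98 through 10.55 to 10.73 on the log2 scale and quadriceps cKO from 10.07 through 10.25 to 10.39. With quadriceps control 4 below every cKO array the fall was 1.17-fold (log2 change -0.23, SE 0.09, limma adjusted p = 0.045), and without it 1.25-fold with no overlap (adjusted p = 0.000274). The call with all arrays sat at the threshold: it was lost when any 1 of 14 arrays was left out, with adjusted p-values up to 0.122 (without quadriceps control 5). Those arrays were quadriceps controls 1, 2, 3, 5 and 6, quadriceps cKO 1, 2, 3 and 6, soleus control 3, and soleus cKO 1, 2, 3 and 6. In soleus the controls ran from 10.40 through 10.49 to 10.56 and the cKO from 9.99 through 10.07 to 10.16, a 1.33-fold fall without overlap (log2 change -0.41, SE 0.09, adjusted p = 0.00102).

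Mdh2 encodes the mitochondrial malate dehydrogenase, which closes the cycle by regenerating oxaloacetate (Entrez gene 17448, mm10 chromosome 5, 135778649 to 135790386). In quadriceps its log2 intensity ran from 11.09 through 11.42 to 11.53 in controls and from 10.92 through 11.03 to 11.21 in cKO, with 5 of 6 cKO arrays below every control. The fall was 1.27-fold (log2 change -0.35, SE 0.07, limma adjusted p = 0.00038). Soleus controls ran from 11.18 through 11.28 to 11.46 and soleus cKO from 10.82 through 10.87 to 10.97. They did not overlap, and the fall was 1.33-fold (log2 change -0.41, SE 0.07, adjusted p = 0.00011).

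Over the set, the cKO arrays lay below every control array for 3 of 9 genes in quadriceps (Idh3a, Idh3g and Suclg1) and for 8 of 9 in soleus, where 6.06% and 4.96% of all genes tested were so separated. With quadriceps control 4 and soleus control 1 left out, 7 members were separated in quadriceps (8.52% of all genes) and 8 in soleus (8.39% of all genes). Ogdh was the enzyme that still overlapped in quadriceps. All 8 enzymes were called lower in quadriceps without quadriceps control 4, a fit in which 16.8% of all genes were called lower. As that array was picked for its low member values, the shares over all genes do not correct for its removal.

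No member passed the test for a different change in the 2 muscles, where 7.39% of all genes were called higher and 4.89% lower (quadriceps change minus soleus change). The nearest were Idh3a (difference 0.44, SE 0.15, limma adjusted p = 0.0593) and Pdha1 (0.46, SE 0.18, adjusted p = 0.0911), both with the larger fitted fall in soleus. The main fit, also used between muscles, held no term for the animal. In an alternative fit, quadriceps and soleus of the same genotype and number were treated as muscles of 1 animal. With the animal as a random block both differences passed (limma adjusted p = 0.0273 for Idh3a and 0.0445 for Pdha1). The labels give the cKO arrays of number 4 unequal ages, 40 days in quadriceps and 41 in soleus, which goes against 1 animal. With that number kept as 2 animals the adjusted p-values were 0.0289 and 0.0458. Both also passed without soleus control 1 (Idh3a 0.54, adjusted p = 0.00445; Pdha1 0.54, adjusted p = 0.0302) and without quadriceps control 6 (0.47, adjusted p = 0.0353; 0.55, adjusted p = 0.0245). Idh3a passed without quadriceps cKO 3 as well (adjusted p = 0.0481). Without both arrays that stand apart the differences were 0.46 for Idh3a (adjusted p = 0.00287) and 0.42 for Pdha1 (adjusted p = 0.0278). For the other 7 genes the difference lay between -0.05 (Suclg1) and 0.26 (Pdk4), with standard errors up to 0.21.

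Between the muscles of control mice, soleus minus quadriceps, 2 members were lower and none higher, where 18.3% of all genes were called lower and 15.2% higher. Suclg1 was 1.44-fold lower in soleus (log2 difference -0.53, limma adjusted p = 1.32e-05) and Idh3a 1.35-fold lower (-0.44, adjusted p = 0.00249). The other 7 differences lay between -0.10 for Mdh2 and 0.33 for Pdk4. For no member did all soleus arrays lie below all quadriceps arrays, as they did for 7.73% of all genes; without both arrays that stand apart Idh3a alone was so separated (13.8% of all genes). Pdk4, higher in soleus (adjusted p = 0.0903), passed with the animal as a block (adjusted p = 0.0438, or 0.0449 with cKO number 4 as 2 animals) and without soleus control 1 (0.45, adjusted p = 0.0133). Mdh2 was called lower in soleus without quadriceps control 4 (-0.16, adjusted p = 0.0484).

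In cKO mice the same comparison called 3 members lower in soleus, where 16.9% of all genes were called lower and 11.9% higher. They were Idh3a (1.83-fold, log2 difference -0.88, limma adjusted p = 1.11e-06), Suclg1 (1.40-fold, -0.48, adjusted p = 8.69e-05) and Idh3g (1.13-fold, -0.18, adjusted p = 0.0147), and for all 3 the muscles did not overlap (10.6% of all genes). Idh3a thus had the order quadriceps control, soleus control, quadriceps cKO and soleus cKO from high to low, in which the lowest group was apart from the others and the other neighbours overlapped. That overlap came through the 2 arrays that stand apart. Without them quadriceps controls read 11.46 or above, soleus controls 11.01 to 11.23 and quadriceps cKO at most 10.92, so that no neighbours overlapped. Pdha1, Fh1 and Mdh2 were lower in cKO soleus by 0.29, 0.19 and 0.16 on the log2 scale (adjusted p = 0.088, 0.109 and 0.0957). These 3 were called when quadriceps control 4 was left out, with adjusted p-values of 0.0315, 0.0215 and 0.0431, although that array is in neither group and enters only through the shared spread. Pdha1 was also called without soleus cKO 6 (-0.35, adjusted p = 0.0441) and with the animal as a block (adjusted p = 0.0485), but not with cKO number 4 kept as 2 animals (adjusted p = 0.0534).

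Pdk4 levels ran in parallel in cKO quadriceps and soleus arrays of the same number. The adjusted exact permutation p of 0.05 was not under the threshold, but a single relation could not pass on its own. The smallest exact permutation p that 6 pairs allow, 0.00278, is adjusted to 0.05 over the 18 relations. Numbered 1 to 6, quadriceps cKO read 11.80, 11.68, 11.88, 11.36, 11.99 and 11.42, and soleus cKO read 11.87, 11.77, 11.90, 11.40, 12.09 and 11.50 on the log2 scale. The soleus value exceeded that of the same number by 0.02 to 0.10 in all 6. Over these 6 pairs Pearson's r was 0.99 and Spearman's rho 1 (exact permutation p = 0.00278 for each, the smallest that 6 pairs allow; adjusted p = 0.05 over the 18 relations computed, 9 genes in each genotype), and r was 0.96 without the 2 pairs farthest from the median, numbers 4 and 6. The labels give unequal ages for number 4, so that its arrays may not be from 1 animal. Number also went with labelled age. In quadriceps cKO the lowest arrays, numbers 4 and 6, were of 40 days, and the highest, number 5, was of 42 days. In soleus cKO number 5 (42 days) was the highest, number 4 (41 days) the lowest and number 6 (40 days) next above it. The part of age in the parallel levels was not tested. Control quadriceps read 11.25, 11.54, 11.14, 10.998, 11.37 and 10.96, and control soleus 10.94, 11.75, 11.59, 11.83, 11.86 and 11.26. There r was 0.25 (exact permutation p = 0.65, adjusted 0.763) and rho 0.31 (p = 0.564, adjusted 0.741), r was -0.18 without the 2 farthest pairs, and soleus minus quadriceps ran from -0.31 to 0.83. The difference between the genotypes in this correlation was not tested. No other of the 18 relations had an adjusted p under 0.3, and that the labels' numbers mark animals was taken from the data, not from the labels.

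**Figure D3:**
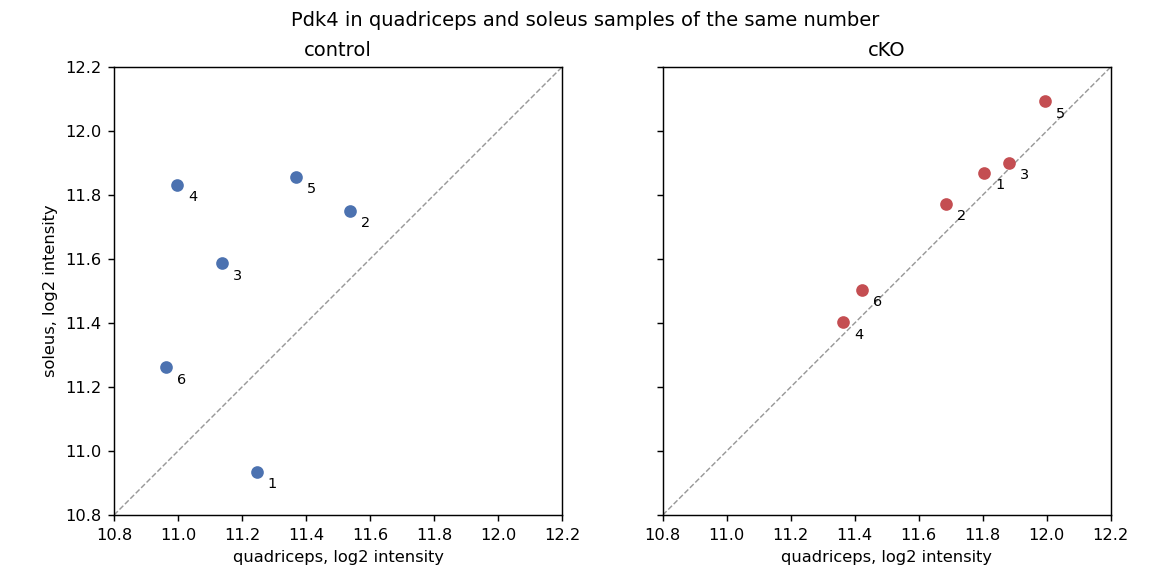
Pdk4 log2 intensity in soleus (y axis) against quadriceps (x axis) for arrays of the same number and genotype, 6 pairs each, with the line of equality. The cKO pairs lie 0.02 to 0.10 above the line, and the control pairs lie from 0.31 below to 0.83 above it.

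The 8 enzymes also varied in the same direction within groups. Taken as deviations from the 4 group means over 24 arrays, the 28 pairs of enzymes had r between 0.14 (Ogdh with Suclg1) and 0.93 (Cs with Ogdh), with a median of 0.60. Without both arrays that stand apart the range was 0.02 to 0.85 and the median 0.59. Pdk4 with the 8 enzymes had r between -0.24 and 0.33 (median -0.04), and without those 2 arrays between -0.71 and 0.17 (median -0.42). These are descriptions over arrays that share their RNA extract and normalization.

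The genes whose deviations were most like those of the 8 enzymes' mean over the 24 arrays were Dlst, the E2 subunit of the oxoglutarate complex (r = 0.98, rho = 0.96), the inner membrane organiser Immt (r = 0.95), the complex III core protein Uqcrc2 (r = 0.93), Dlat, the E2 subunit of pyruvate dehydrogenase (r = 0.93), and Phyh (r = 0.92). Those most like Pdk4 were the uncoupling protein gene Ucp3 (r = 0.78, rho = 0.80), Atp13a5 (r = 0.75), Gpcpd1 (r = 0.73), Ppp1r14c (r = 0.73) and Scg3 (r = 0.70). Without the 2 arrays that deviated most from their group means, in the enzymes' mean or in Pdk4, r was 0.96 for Dlst and 0.72 for Ucp3. Ucp3 itself had changes of -0.13 in quadriceps (limma adjusted p = 0.748) and -0.28 in soleus (adjusted p = 0.539). Gpcpd1 (-1.90 in quadriceps and -1.42 in soleus), Ppp1r14c (-1.24 and -0.96) and Atp13a5 (-0.44 and -0.45) were called lower in both muscles. Scg3 changed by -0.19 in quadriceps, not called, and by -0.72 in soleus, called. Likeness to Pdk4 within groups thus did not extend to the direction of the cKO change.

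Partner subunits of 1 enzyme differed in how far they changed. The within-array difference of log2 values was compared between cKO and control by exact two-sided permutation tests, for 6 pairs in 2 muscles, pairs that were chosen with earlier results known; the smallest p that 6 arrays against 6 allow is 0.00216. Idh3a fell further than Idh3g by 0.41 in quadriceps (SE 0.10, adjusted exact p = 0.0115) and by 0.77 in soleus (SE 0.11, adjusted exact p = 0.00433), and further than Idh3b by 0.66 and 1.03 (adjusted exact p = 0.00433 for both). Suclg1 fell further than Sucla2, the beta subunit of the ATP-forming ligase, by 0.55 in quadriceps and 0.21 in soleus (adjusted exact p = 0.00649 for both). Against Suclg2, its GTP-forming partner, the gap was 0.52 in quadriceps (adjusted exact p = 0.00433) but 0.17 in soleus (SE 0.10, exact p = 0.11). Pdha1 fell further than Pdhb, the E1 beta subunit, by 0.57 in soleus (adjusted exact p = 0.00433); the gap of 0.17 in quadriceps (SE 0.08, adjusted exact p = 0.0685) missed the threshold.

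The rest of pyruvate entry was given by a list of 12 genes, of which 11 were measured. In the cKO quadriceps 8 were lower and 2 higher, where 17.7% of all genes were called lower and 22.3% higher. In the cKO soleus 9 were lower and none higher, where 9.94% of all genes were called lower and 13.2% higher. The median log2 changes of the list were -0.34 and -0.49. The kinases split. Pdk2, a broadly expressed kinase, fell 1.72-fold in quadriceps (log2 change -0.78, SE 0.08, limma adjusted p = 1.63e-08) and 1.26-fold in soleus (-0.33, SE 0.08, adjusted p = 0.00251), and this difference between muscles passed the test (-0.44, SE 0.11, adjusted p = 0.00989). Pdk1 rose by 0.58 and Pdk3 by 0.54 on the log2 scale in quadriceps (adjusted p = 3.01e-05 and 0.000254), with soleus changes of 0.18 and 0.27 that were not called. Pdk4 minus Pdk2 thus shifted by 1.26 in quadriceps (SE 0.20, adjusted exact permutation p = 0.00433) and by 0.56 in soleus (SE 0.22, adjusted exact permutation p = 0.039). The phosphatase gene Pdp1 fell by 0.50 and 0.49 on the log2 scale, and its regulatory subunit Pdpr by 0.41 and 0.63. Pdp2, a phosphatase isozyme, changed by -0.04 in quadriceps and fell 1.70-fold in soleus (limma adjusted p = 0.000645). The difference between muscles was 0.72 (limma adjusted p = 0.0332). Pdp2 and Pdk3 were dim genes, near the array medians of 4.74 to 4.94. Mean log2 intensity of Pdp2 was 5.15 in soleus controls and 4.39 in soleus cKO, and that of Pdk3 was 4.84 and 5.38 in quadriceps. The mitochondrial pyruvate carrier Mpc1 fell 1.40-fold and 1.41-fold (adjusted p = 8.94e-06 and 1.30e-05). The other complex subunits Pdhb, Dlat, Dld and Pdhx were lower in both muscles, by 0.23 to 0.52 in quadriceps and 0.29 to 0.66 in soleus.

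Among 9 measured genes of the other cycle steps, 5 were lower and 1 higher in quadriceps and 7 lower and none higher in soleus, with medians of -0.25 and -0.49. The shares over all genes were 17.7% lower and 22.3% higher in quadriceps, and 9.94% and 13.2% in soleus. The beta subunits Sucla2 and Suclg2 fell by 0.33 and 0.35 in quadriceps and by 0.62 and 0.66 in soleus on the log2 scale, and Dlst by 0.27 and 0.48. Of the succinate dehydrogenase genes, Sdhb fell 1.29-fold in quadriceps and 1.45-fold in soleus (limma adjusted p = 7.55e-05 and 9.30e-07), and Sdha 1.19-fold and 1.42-fold. Sdhd, an anchor subunit, had a change of -0.20 in quadriceps (adjusted p = 0.118), and of -0.33 without quadriceps control 4 (adjusted p = 0.000864). With Idh3b, 7 of the 9 genes were then lower in quadriceps, in a fit that called 16.8% of all genes lower. That array was picked for low member values. Idh2, the NADP-dependent mitochondrial isocitrate dehydrogenase, was the gene that rose: 1.44-fold in quadriceps (log2 change 0.52, SE 0.12, adjusted p = 0.000731), against -0.27 in soleus (adjusted p = 0.0992). The difference passed the test (0.79, SE 0.16, adjusted p = 0.0021), and in controls Idh2 was 2.81-fold higher in soleus than in quadriceps (adjusted p = 1.37e-10).

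**Figure D4:**
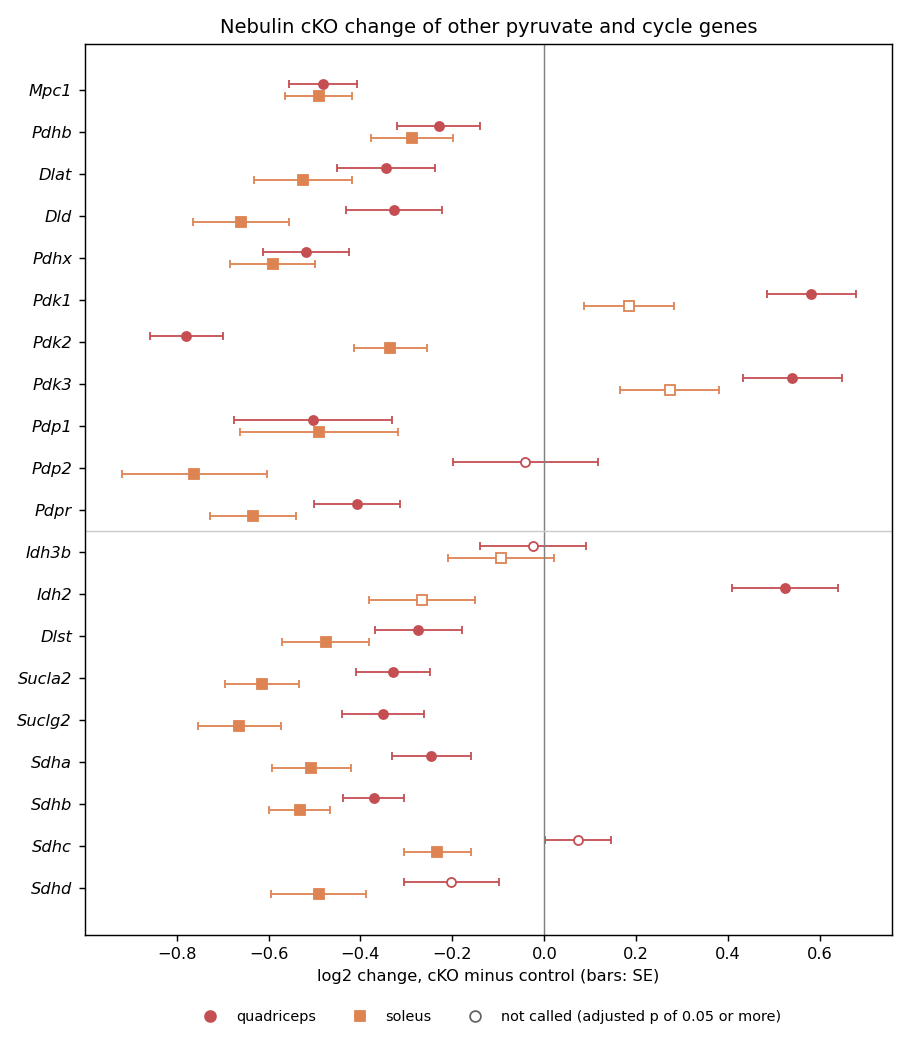
Log2 change in cKO against control (x axis) of 20 further measured genes of pyruvate entry and the cycle, in quadriceps and soleus, with standard errors; filled points passed an adjusted p of 0.05. In quadriceps 13 genes were lower and 3 (Pdk1, Pdk3 and Idh2) higher, and in soleus 16 were lower and none higher. Over all genes 17.7% were called lower and 22.3% higher in quadriceps, and 9.94% and 13.2% in soleus.

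Other markers moved with the genotype, and their part in the changes above was not tested. Over all genes 22.3% were called higher and 17.7% lower in the cKO quadriceps, and 13.2% and 9.94% in the cKO soleus. All 8 slow fibre contractile genes rose in the cKO quadriceps (summed intensity 18371 to 25514, against 3755 to 10810 in controls), and 5 of 9 fast fibre genes fell (43519 to 49731 against 55286 to 58052). In soleus 2 of 8 slow fibre genes rose and 1 fell (42914 to 43523 against 31759 to 44150), and 7 of 9 fast fibre genes fell (21291 to 25777 against 28266 to 39581). Macrophage markers rose for 6 of 9 genes in both muscles (1380 to 1620 against 810 to 1347 in quadriceps, and 1060 to 1581 against 729 to 966 in soleus). Fibroblast markers rose for 5 of 6 in quadriceps (9408 to 11378 against 5654 to 9180) and 4 of 6 in soleus (7968 to 11021 against 7377 to 8465). Adipocyte markers rose for 3 of 5 in quadriceps (1130 to 4283 against 628 to 3008) and for none in soleus (424 to 1004 against 342 to 626). Endothelial markers fell for 5 of 6 in soleus (1546 to 1848 against 1982 to 3216) and changed for none in quadriceps (1442 to 1974 against 1475 to 2729). Every measured marker of these lists passed the filter on dim genes. A list of 16 measured genes of the mitochondrial outer membrane, import and matrix chaperones had 5 lower in quadriceps (11580 to 14116 against 14494 to 16458) and 6 lower and 1 higher in soleus (11534 to 12819 against 13964 to 15262), with median log2 changes of -0.16 and -0.10. The summed intensity of the 8 enzymes was 13058 to 14962 in quadriceps cKO against 13967 to 20682 in controls, and 11409 to 12816 in soleus cKO against 15579 to 19635.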

How the data were processed

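The authors deposited linear intensities, from 1.76 to 10075, for every probe set on every array. Per the submitters' processing notes, Affymetrix Expression Console and RMA (background correction, quantile normalization and probe set summary) made them, on build mm10, with no versions given. Quantile normalization forces like distributions on all arrays, so changes are relative to other genes. Per the labels' protocols, total RNA came from muscle kept in RNAlater. The intensities were turned to log2. Of 35557 probe sets, 21789 had 1 gene symbol, 1621 several and 12147 none listed here; 21698 matched RefSeq GRCm38.p6 by Entrez number. For the 999 genes with several probe sets the one with the highest mean was used. Genes above the array's 30th percentile (3.51 to 3.72) on at least 6 arrays were kept: 15999, with 3939 dim genes left out.

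All 24 arrays entered 1 limma fit with a mean per group and no block (limma 3.58.1, R 4.3.3, eBayes, 20 residual degrees of freedom), with p-values adjusted over the 15999 genes. The fit was tested on simulated data. Exact permutation tests used SciPy 1.17.1. Groups came from sample titles. The members, lists and tests were chosen with earlier results of these data known. The pathway genes named are the members' partner subunits and isozymes, and up to 5 per list and cKO comparison (3 between muscles) by smallest p. Angptl4, Cpt1a and Foxo3, and the other lipid genes given beside them, fall outside it and were chosen after their values were seen. The genes most like the set are the 5 with the highest correlation of deviations. Mpc2 had no probe set of 1 symbol and was not used here.

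The labels number the arrays 1 to 6 in every group. Both muscles with the same genotype and number had correlated deviations (r from 0.155 to 0.305 among controls, from 0.216 to 0.450 among cKO), each of the 12 pairs over 0.1 and highest for its own number. In the animal block alternatives, but not in the main fit, they were treated as 1 animal (consensus correlation 0.195). The labels give cKO number 4 as 40 days in quadriceps and 41 in soleus, so an alternative chosen after seeing the data kept it as 2 animals. Control and cKO of 1 number were not treated as pairs (r from -0.147 to 0.169 in quadriceps and from 0.0408 to 0.316 in soleus). In soleus 4 of these 6 were over 0.1 and 4 were highest for their own number, and in quadriceps 3 and 2. Control quadriceps with cKO soleus gave 4 and 4, and cKO quadriceps with control soleus 1 and 3. What arrays of 1 number share across genotypes was not tested. Alternatives changed the scaling, the filter, the probe set rule, the weights, the prior, the block, the arrays in the fit and 1 array at a time.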

Additional observations from a re-analysis of the deposited data

Results flagged for a closer look

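Within the 36 sets of 6 arrays of 1 gene and group, 8 held an array whose gap to its neighbour exceeded Dixon's critical value as a share of the group's range; chance gives about 1 in 20. Quadriceps control 4 was that array for Cs (10.58 on the log2 scale), Idh3a (11.01), Fh1 (9.98) and Mdh2 (11.09), each time as the lowest. Soleus control 1 was the lowest for Idh3a (10.46). The others were Cs in soleus cKO 6 (11.02, the highest), Suclg1 in quadriceps control 1 (9.91, the lowest) and Pdha1 in quadriceps cKO 3 (10.56, the lowest).

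The change in cKO differed between the muscles for 10 of 68 pathway genes tested (limma interaction, adjusted p under 0.05, as for 7.39% of all genes higher and 4.89% lower), none of them a member. As quadriceps minus soleus on the log2 scale, the differences were -0.44 for Pdk2 (adjusted p = 0.00989), 0.72 for Pdp2 (0.0332), 0.79 for Idh2 (0.0021), 0.31 for the succinate dehydrogenase anchor Sdhc (0.0493) and 0.61 for the mitochondrial malic enzyme Me2 (0.00166). They were 0.48 for the lactate dehydrogenase Ldha (0.0229), 1.09 for the thioesterase Acot2 (0.017), 1.45 for the nuclear receptor Esrrg (0.00537), 0.92 for Foxo1 (0.0332) and -0.61 for Foxo4 (0.00302). Sdhc was not called without quadriceps control 4 (0.29, adjusted p = 0.0587), without soleus control 1 (0.27, 0.0664) or without both (0.26, 0.0766), nor was Foxo1 without quadriceps control 4 (0.86, 0.0518). Pdp2 was dim, with a mean log2 intensity of 4.39 in soleus cKO.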

How the results depend on the processing

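Of 1656 results for single members under an alternative, 1590 kept their direction and side of the threshold, 19 lost the call, 47 gained one and none reversed while called; 22 uncalled values changed sign. Members called for the difference of the changes (a larger fall in soleus) numbered 0 with all arrays, 1 with the stricter filter on dim genes, 2 with array weights, 2 with the animal as a random replicate block, 2 with that block and cKO number 4 as 2 animals, 2 without both arrays that stand apart (the latter 2 alternatives were chosen after seeing the data) and 0 to 2 when 1 array was left out. Members higher in control soleus than in control quadriceps numbered 0, but 1 with the number as a fixed replicate block, 1 with either animal block, 1 without both arrays and 0 to 1 leaving out 1 array. Members lower in cKO soleus than in cKO quadriceps numbered 3, but 6 with array weights, 6 with only the arrays compared, 6 without both arrays, 6 by unadjusted exact permutation tests and 3 to 6 leaving out 1 array; over all genes 16.9% were lower with all arrays, 23.6% with array weights, 21.9% with only the arrays compared and 20.4% without both arrays. The number block fits 1 effect per number, shared by control and cKO, although these were not taken as pairs. It also called Cs lower in quadriceps (limma adjusted p = 0.0364). The blocks changed no other count of members past 1.5 times. Scaling mattered for members near the threshold: with each array centred on its 75th percentile Cs (adjusted p = 0.00752) and Ogdh (0.0115) were called in quadriceps and Idh3g was not called between cKO muscles (0.208), and with each array centred on its median Fh1 in quadriceps (0.0612) and Cs in soleus (0.0614) were not called. Fh1 in quadriceps was also lost with only the arrays compared (0.131). Over all genes, the share of calls that were higher in cKO quadriceps was 55.7%, but 37.5% with the 75th percentile. In soleus it was 57.0%, but 66.9% with the median and 47.3% with the 75th percentile. For the difference of the changes it was 60.2%, but 45.6% with the median and 48.7% with the 75th percentile. Between muscles it was 45.4% in controls, but 22.3% (median) and 56.2% (75th percentile), and 41.3% in cKO, but 23.95% and 68.6%. The cause of these shifts was not tested. No batch is given in the sources used here, and the lowest value of any member was 8.71 on the log2 scale, above the dim limit of at most 3.72.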

Other observations

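Reactions that feed or drain the cycle moved unevenly. Of 18 such genes, all measured, 4 were lower and 2 higher in the cKO quadriceps, and 8 lower and 1 higher in the cKO soleus. Over all genes 17.7% were called lower and 22.3% higher in quadriceps, and 9.94% and 13.2% in soleus. Me2, a mitochondrial malic enzyme that makes pyruvate from malate, rose 2.23-fold in quadriceps (log2 change 1.15, SE 0.09, limma adjusted p = 8.23e-11) and 1.45-fold in soleus (adjusted p = 3.86e-05). Me3, its NADP-dependent mitochondrial relative, fell 1.76-fold and 2.35-fold (adjusted p = 4.05e-06 and 1.16e-08). The cytosolic Me1 fell 1.94-fold in quadriceps (adjusted p = 1.12e-05), with a soleus change of -0.35 (adjusted p = 0.0916). Ldha, the muscle lactate dehydrogenase subunit, fell 1.49-fold in soleus (adjusted p = 7.79e-05) and changed by -0.09 in quadriceps (adjusted p = 0.48). Without quadriceps control 4 Me1 was also called in soleus (adjusted p = 0.0462), and without both arrays that stand apart Ldha was called in quadriceps (-0.18, adjusted p = 0.0409). The aspartate aminotransferase Got1 fell 1.27-fold in quadriceps and 1.66-fold in soleus.

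A list of PPAR and FoxO factors and genes known with Pdk4 as their targets, with ERR receptors, PGC-1 coactivators and the glucocorticoid receptor gene, had 21 of 24 measured. Of these, 6 were higher and 6 lower in the cKO quadriceps, and 1 higher and 8 lower in the cKO soleus. The shares over all genes were 22.3% higher and 17.7% lower in quadriceps, and 13.2% and 9.94% in soleus. In quadriceps the lipoprotein lipase inhibitor Angptl4 rose 1.83-fold (log2 change 0.87, SE 0.21, limma adjusted p = 0.00152), Cpt1a, which loads fatty acids onto carnitine, 1.49-fold, and the factor Foxo1 2.01-fold (adjusted p = 0.00025) and the nuclear receptor Esrrg 2.30-fold (adjusted p = 0.000259), while Foxo4 fell 1.72-fold. Their soleus changes, 0.22, 0.05, 0.09, -0.25 and -0.17, were not called. The receptors Ppard and Esrra fell in quadriceps, by 0.39 and 0.46. Foxo3 rose in both muscles (0.39 and 0.33). Angptl4 and Cpt1a were picked after their values were seen. Among the list's other lipid genes, mean log2 intensity was lower in cKO than in control quadriceps for Plin5 (6.47 against 6.98). So it was for Slc25a20 (8.59 against 8.89), Plin2 (8.49 against 8.74), Fabp3, Ucp3 and Acot1, while Acot2 was higher (8.91 against 8.70). The quadriceps means of Ppara were 6.81 in cKO and 7.33 in controls. In soleus the coactivator gene Ppargc1a, known for driving mitochondrial biogenesis, fell 3.42-fold (log2 change -1.78, SE 0.31, adjusted p = 0.00011) and Ppara fell 2.13-fold (adjusted p = 0.000132). The Ppargc1a change in quadriceps was -0.51 (adjusted p = 0.196), and its difference between muscles, 1.26 (SE 0.44, adjusted p = 0.0612), did not pass the test; without soleus control 1 it was 1.52 (adjusted p = 0.0104).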
